A study of Mus musculus with 12 samples.

Results

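The genes described here encode 10 amino acid transporters of the plasma membrane: Slc7a5, Slc3a2, Slc1a5, Slc1a4, Slc7a1, Slc7a3, Slc7a11, Slc38a1, Slc38a2 and Slc6a9. They were taken by symbol from the deposited count table, which held all 10 among 26214 gene symbols. The RNA came from mLTC-1, an immortalized mouse cell line derived from Leydig cells, the androgen-producing cells of the testis. The MSNBA group held 6 libraries from cells given 100 µM MSNBA for 24 h, a compound presented in the series as blocking Glut5, which carries fructose. The control group held 6 libraries from cells given the DMSO vehicle for the same time. Every group was grown in the same serum-containing medium with added glutamine, and both rest on this single cell line. Nothing in the labels states that replicates came from separate cultures, and p-values therefore measure only the spread between these libraries, which may be technical.

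Amino acids cross the plasma membrane through carriers with overlapping substrates. Exchangers such as those encoded by Slc1a5 and Slc7a5 swap one amino acid for another, while the sodium-coupled carriers of Slc38a1 and Slc38a2 load the cell with small neutral amino acids and glutamine that the exchangers can trade. Slc3a2 encodes a heavy chain, CD98, that carries no amino acid itself but brings light chains, among them the products of Slc7a5 and Slc7a11, to the cell surface. When amino acids run short, or under other stresses, the transcription factor encoded by Atf4 is translated more and raises the transcription of many of these carriers together with enzymes such as asparagine synthetase. Its binding sites are known as C/EBP-ATF response elements.

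Total counts ran from 94179 to 657251 in MSNBA libraries and from 59113 to 234225 in control libraries, which is a 2.14-fold difference in geometric mean depth, higher in MSNBA (p = 0.0606 by an exact permutation test, two-sided, n = 6 per group). All 8 Leydig cell markers listed for this check, among them Star, Cyp11a1 and Insl3, were abundant enough to be tested, and their summed level was 9931 to 12443 normalized CPM in MSNBA libraries and 10199 to 14294 in controls. Normalized CPM are counts scaled to a common library size over the tested genes with TMM factors, and every CPM below is on that scale. Macrophage markers summed to 13.6 to 25.7 CPM in MSNBA libraries and 0 to 62.4 in controls, and endothelial markers to 6.88 to 27.1 CPM in MSNBA libraries and 10.6 to 65.0 in controls. Germ cell markers summed to 75.2 to 193 CPM and fibroblast and peritubular markers to 27.5 to 163 CPM in MSNBA libraries, against 89.9 to 250 and 63.5 to 199 CPM in controls. Sertoli cell markers summed to 1367 to 1864 CPM in MSNBA libraries and 1432 to 2796 in controls, with Clu, a secreted chaperone gene, as their tested member (log2 fold change -0.38, SE 0.13, adjusted p = 0.318 by edgeR). Clu alone had a mean of 1442 CPM in MSNBA and 1891 CPM in control libraries, and so made up most of the Sertoli sums. In bulk RNA, fewer cells of a type and less RNA per cell cannot be told apart. Controls 2 and 4 stood apart from the other controls in the summed level of the amino acid deprivation response genes, as given with that list below. Fold changes of the transporters and of the named genes of that response are therefore also given without controls 2 and 4, against the other 4 controls.

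Of the 10 transporter genes, 6 passed the low-count filter and were tested (Slc7a5, Slc3a2, Slc1a5, Slc7a11, Slc38a2 and Slc6a9), while Slc1a4, Slc7a1, Slc38a1 and Slc7a3 had too few counts to pass it. No transporter passed the adjusted threshold of 0.05 by edgeR's quasi-likelihood test, where 2 of all 2614 tested genes did (0.0765%). At an unadjusted p under 0.05, 1 of the 6 was higher, Slc1a5, and 0 were lower, beside 4.17% of all tested genes higher and 4.78% lower. DESeq2 and limma-voom also called 0 of them, with Slc1a5 again below an unadjusted p of 0.05 in each. The median log2 fold change of the 6, MSNBA over control, was 0.28, against -0.0082 for all tested genes, and the other 4 members do not enter that median.

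Averaged over the 12 libraries and divided by exonic length in GENCODE vM21, Slc3a2 had the highest level, at 436 ± 64.2 CPM per kilobase (SD over libraries), followed by Slc7a5 at 119 ± 10.6. Next came Slc1a5 (35.1 ± 20.2), Slc38a2 (32.7 ± 11.1) and Slc6a9 (25.7 ± 14.5), which lay within their spread of each other. Slc1a4 (12.4 ± 3.98), Slc7a11 (11.7 ± 4.67) and Slc7a1 (11.3 ± 4.73) formed a lower set that likewise did not separate, and Slc38a1 (0.67 ± 0.68) and Slc7a3 (0.50 ± 1.5) lay at the bottom. How reads fall along a transcript is not given in the sources used here, and if they come mainly from transcript ends, length should not be divided out. Without that division Slc3a2 and Slc7a5 still ranked at the top, and Slc7a11 moved from rank 7 to rank 4.

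Slc1a5 encodes a sodium-dependent exchanger that is a main route of glutamine entry in many cultured cells (chromosome 7, 16781334 to 16798274, RefSeq on GRCm38.p6, the assembly that mm10 names). Its lowest, median and highest levels were 67.8, 121 and 224 CPM in MSNBA libraries, against 16.5, 57.6 and 111 CPM in control libraries. In MSNBA, 5 of 6 libraries lay above every control, an arrangement that 2.03% of all tested genes shared, and MSNBA 4 was the library inside the control range. The lowest of the 5, MSNBA 3 at 112 CPM, was barely above control 6 at 111 CPM. The means were 133 ± 52.0 CPM in MSNBA and 61.1 ± 32.5 CPM in controls (SD, n = 6 per group). The fitted change was 2.11-fold (95% interval 1.40 to 3.16), or 1.08 on the log2 scale (SE 0.29), with an unadjusted p = 6.03e-04 and an adjusted p = 0.104 by edgeR. By p it ranked 15 of 2614 genes, and it was 1 of 2 tested genes with a log2 fold change of 1 or more.

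Few molecules stand behind these levels: 180 counts over the MSNBA group and 35 over the control group, with 5 in MSNBA 4 and 1 in control 2. Pooled over each group's libraries this gave 139 CPM in MSNBA (exact Poisson 95% interval 120 to 161) and 65.0 CPM in controls (45.2 to 90.3), intervals that cover counting error only. Leaving out 1 library at a time moved the log2 fold change from 0.94 (without control 2) to 1.38 (without control 6), with adjusted p from 0.0735 to 0.301. Without the low-count filter it passed (log2 value 1.21, adjusted p = 0.0348), in a fit where the median of the 2614 genes stood at 0.14. Without controls 2 and 4 the log2 fold change was 0.97 (adjusted p = 0.250), and with log2 depth in the model it was 0.96 (adjusted p = 0.388). Over the 12 libraries, its log2 CPM had Pearson r = 0.60 with log2 depth (permutation p = 0.0408, adjusted p = 0.143 over 7 genes compared with depth) and Spearman rho = 0.68 (p = 0.0188). That r was 0.40 within MSNBA libraries, 0.34 within controls (n = 6 each) and 0.50 without MSNBA 1 and control 5, the libraries farthest from the median depth.

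**Figure D1:**
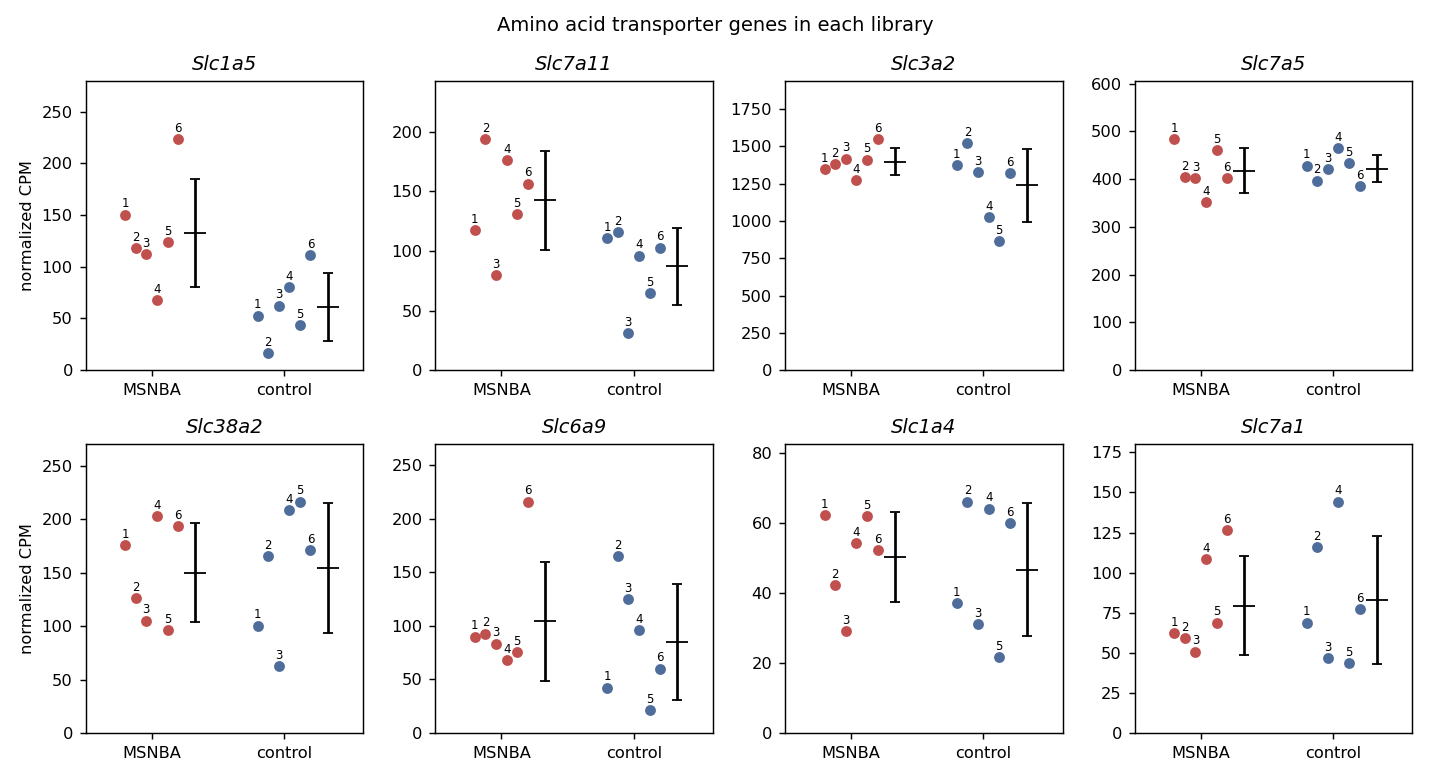
Normalized CPM (y axes, linear, from 0) of 8 transporter genes in each library, MSNBA libraries in red at the left and control libraries in blue at the right of each panel. Each point is a library with its replicate number, and the black bar is the group mean ± SD (n = 6 per group). In Slc1a5 and Slc7a11, 5 of 6 MSNBA points lie above every control point, while in Slc7a5, Slc38a2, Slc1a4 and Slc7a1 the groups span about the same range.

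**Figure D2:**
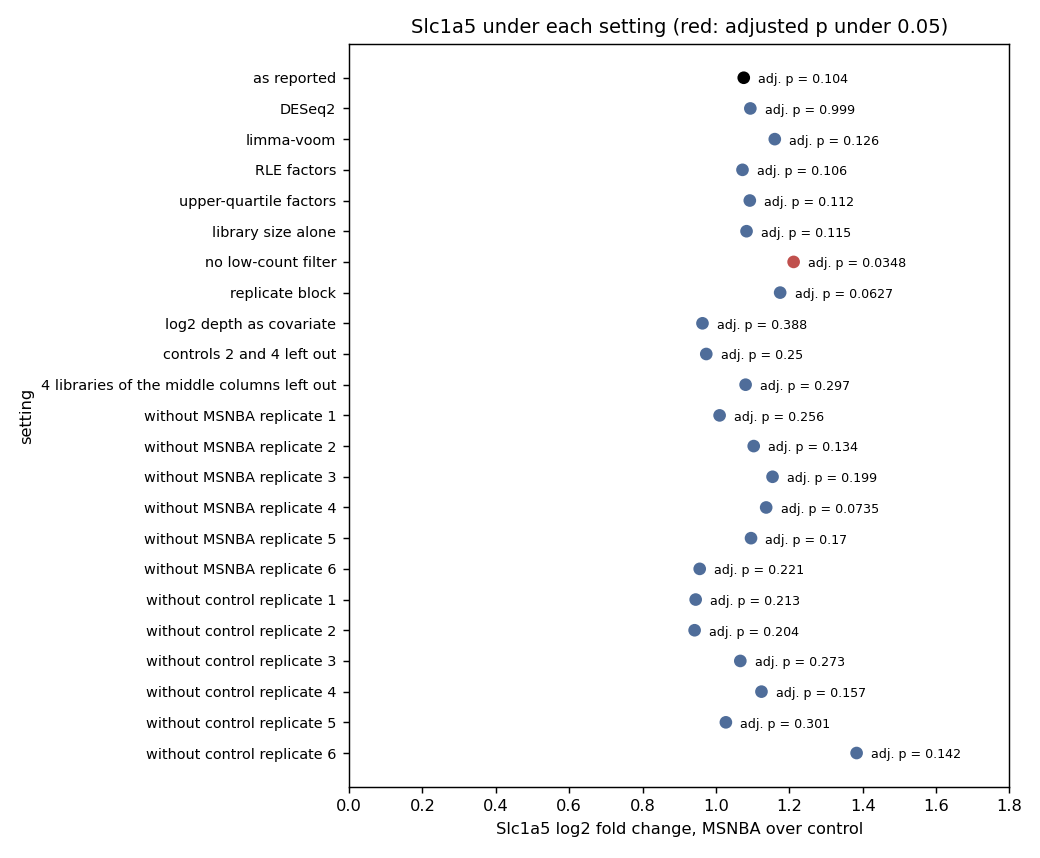
Log2 fold change of Slc1a5, MSNBA over control (x axis), under each setting tried (y axis), with its adjusted p. The value lies between 0.94 and 1.38 in every setting shown, and the point without the low-count filter, in red, is the setting that passes 0.05.

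Slc1a4 encodes the closest relative of Slc1a5 in the list, an exchanger of serine, alanine and cysteine (chromosome 11, 20302180 to 20332713). It fell below the low-count filter, with 67 counts over the MSNBA group, from 4 to 34 per library, and 25 over the control group, from 1 to 7. The pooled levels were 51.8 CPM (40.2 to 65.8) in MSNBA and 46.4 CPM (30.0 to 68.5) in controls, a ratio of 1.12 with a counting interval of 0.696 to 1.85. The pooled log2 ratio was 0.16 with all libraries, 0.34 without controls 2 and 4 and -0.07 without MSNBA 1. In fits without that filter the log2 fold change was 0.27 by edgeR (adjusted p = 0.799) and 0.12 by DESeq2 (adjusted p = 0.999).

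Slc3a2, the CD98 heavy chain (chromosome 19, 8706882 to 8723369), was the most deeply counted gene of the list, with 1796 counts in MSNBA and 695 in control libraries. Its lowest, median and highest levels were 1274, 1398 and 1551 CPM in MSNBA, against 867, 1323 and 1522 CPM in controls. Controls 4 and 5 lay below every MSNBA library, and the other controls lay among them. The log2 fold change was 0.16 (SE 0.11, adjusted p = 0.696 by edgeR), with a 95% interval of 0.95-fold to 1.31-fold, and it was 0.16 (adjusted p = 0.736) without controls 2 and 4.

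Slc7a5, the light chain that exchanges leucine and other large neutral amino acids (chromosome 8, 121881146 to 121907686), differed least of the tested transporters. Its lowest, median and highest levels were 352, 404 and 484 CPM in MSNBA, against 386, 425 and 465 CPM in controls. The control libraries all fell inside the MSNBA range. The means were 418 ± 47.4 CPM in MSNBA and 422 ± 28.1 CPM in controls (SD, n = 6 per group), and the fitted log2 fold change was 0.02 (SE 0.14, adjusted p = 0.988 by edgeR), with an interval of 0.828-fold to 1.24-fold. Without controls 2 and 4 it was 0.04 (adjusted p = 0.972). Its sign turned with log2 depth in the model (-0.06) and in 3 of the 12 fits that left out 1 library.

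Slc7a11, the light chain of the cystine and glutamate exchanger xCT, which supplies cysteine for glutathione (chromosome 3, 50364936 to 50499087), had 80, 144 and 194 CPM as lowest, median and highest in MSNBA, against 31.2, 99.5 and 116 CPM in controls. As for Slc1a5, 5 of 6 MSNBA libraries lay above every control, as in 2.03% of all tested genes, with MSNBA 3 the library inside the control range. The lowest of the 5, MSNBA 1 at 117 CPM, was barely above control 2 at 116 CPM, which rested on 7 counts. The counts behind this were 162 in MSNBA and 51 in controls, with 2 in control 3. The means were 142 ± 41.7 CPM in MSNBA and 87.0 ± 32.7 CPM in controls (SD, n = 6 per group). The log2 fold change was 0.47 (SE 0.26, unadjusted p = 0.0821, adjusted p = 0.589 by edgeR), and its 95% interval spanned 0.958-fold to 2.00-fold. Without controls 2 and 4 it was 0.53 (adjusted p = 0.614). Leaving out 1 library gave values from 0.34 (without control 3) to 0.65 (without MSNBA 3), and without the 4 libraries of the middle columns of the table (controls 2 and 4, MSNBA 3 and 5) it was 0.74 (adjusted p = 0.557).

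The number of Slc3a2 counts per Slc7a5 count ran from 2.78 to 3.85 in MSNBA libraries and from 2.00 to 3.83 in controls, so the heavy and light chain RNAs kept overlapping proportions. The number per Slc7a11 count ran from 7.13 to 17.8 in MSNBA libraries and from 10.7 to 42.5 in controls, the highest being control 3, where Slc7a11 had its lowest level.

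The windows around the annotated transcript starts, from 250 bases before to 50 bases into the transcript, were searched for TGATGNAA, the core letters of the C/EBP-ATF response element, on both strands. RefSeq windows were matched for 6 of the 10 genes (9 windows), and 2 of these genes, Slc7a11 and Slc1a4, held the letters, in 2 of the 9 windows. Among 32851 windows of all genes, 3.97% held the letters and 0.07% held them more than once, as the Slc7a11 window did. Counted by gene, 1219 of 27025 held them in at least 1 window. Both sequences are given as the gene's strand in lower case with the matched letters in capitals (GRCm38.p6, Slc7a11 at chr3:50443564-50443863 and Slc1a4 at chr11:20332664-20332963, each on the minus strand).
Slc7a11: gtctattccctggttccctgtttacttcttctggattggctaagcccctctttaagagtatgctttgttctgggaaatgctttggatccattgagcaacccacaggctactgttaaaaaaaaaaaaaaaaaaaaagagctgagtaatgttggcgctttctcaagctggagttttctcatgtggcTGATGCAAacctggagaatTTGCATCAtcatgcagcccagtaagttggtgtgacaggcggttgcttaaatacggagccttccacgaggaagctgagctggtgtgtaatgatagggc
Slc1a4: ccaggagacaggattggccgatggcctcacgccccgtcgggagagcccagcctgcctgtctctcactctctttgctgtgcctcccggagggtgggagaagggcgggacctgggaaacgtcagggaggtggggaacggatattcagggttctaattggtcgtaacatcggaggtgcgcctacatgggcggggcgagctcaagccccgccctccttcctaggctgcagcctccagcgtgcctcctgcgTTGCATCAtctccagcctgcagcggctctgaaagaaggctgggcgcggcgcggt

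In the Slc7a11 window the letters read TGATGCAA on the gene's strand from base 66 to base 59 before the start, and TTGCATCA, their reverse complement, from base 47 to base 40 before it, so that the matches face each other. In the Slc1a4 window TTGCATCA spans the start itself, from base 4 before it to base 4 of the transcript. No match was found in the windows of Slc3a2, Slc7a1, Slc38a2 and Slc6a9, which says only that these letters are not in those windows. The windows of Slc7a11 and Slc3a2 lie inside the gene spans given above, so the outermost starts of these genes were not searched. In the amino acid deprivation response list, windows of 7 of 23 matched genes held the letters, among them those of Asns and Trib3. A match describes the sequence and was not measured as binding.

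Slc38a2, a sodium-coupled carrier of glutamine and small neutral amino acids whose RNA is known to rise when amino acids are withdrawn (chromosome 15, 96687392 to 96699728), showed no separation of the groups. Its lowest, median and highest levels were 96.4, 151 and 203 CPM in MSNBA, against 62.4, 168 and 217 CPM in controls. The log2 fold change was 0.04 (SE 0.25, adjusted p = 0.982 by edgeR), with an interval of 0.727-fold to 1.45-fold. Without controls 2 and 4 it was 0.20 (adjusted p = 0.911). Without 1 library it ran from -0.15 (without control 1) to 0.15 (without MSNBA 3), and without the 4 libraries of the middle columns it was 0.42 (adjusted p = 0.767).

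Its relative Slc38a1 (chromosome 15, 96571418 to 96643438) lies 43953 bases away on the same chromosome and encodes a carrier of similar substrates. It had 7 counts over the MSNBA group, in 4 of 6 libraries, and 4 over the control group, in 3 of 6, with pooled levels of 5.42 CPM (2.18 to 11.2) in MSNBA and 7.42 CPM (2.02 to 19.0) in controls. A difference between the groups was not detectable at this depth, since the counting interval of the ratio ran from 0.185 to 3.40, and the log2 ratio of -0.45 turned to 0.17 without controls 2 and 4 and to 0.19 without control 6.

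Slc7a1 encodes the widely expressed carrier of arginine and lysine (chromosome 5, 148327410 to 148399904). It had 90 counts in MSNBA and 43 in control libraries, and pooled levels of 69.6 CPM (56.0 to 85.6) in MSNBA and 79.8 CPM (57.8 to 107) in controls. The libraries with most were control 4 at 144 CPM, MSNBA 6 at 127, control 2 at 116 and MSNBA 4 at 108, while the other 8 lay between 43.3 and 77.1 CPM. The log2 ratio was -0.20 with all libraries and 0.10 without controls 2 and 4. Slc7a3, a further cationic amino acid carrier known mainly from brain and embryo (chromosome X, 101079146 to 101090452), had 1 count in MSNBA 1 and 1 in control 3. A floor of 3 counts over a group corresponds to 2.32 CPM in MSNBA and 5.57 CPM in controls, and no fold was computed for it.

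Slc6a9 encodes a sodium- and chloride-coupled glycine transporter (chromosome 4, 117835258 to 117869305). Its lowest, median and highest levels were 67.8, 86.7 and 216 CPM in MSNBA, against 21.7, 78.1 and 165 CPM in controls. MSNBA 6 stood above all other libraries, and controls ranged from below to above the remaining MSNBA libraries. The log2 fold change was 0.41 (SE 0.35, adjusted p = 0.757 by edgeR), with an interval of 0.810-fold to 2.19-fold. With 1 library left out it ran from 0.13 (without control 1) to 0.66 (without control 2), and without controls 2 and 4 it was 0.79 (unadjusted p = 0.0403, adjusted p = 0.521). Control 2 had the highest Slc6a9 level of the controls, at 165 CPM. Leaving it out lowers the control mean by construction, so that unadjusted p is a description only. Exons of Slc6a9 share 1429 bases with Ccdc24 on the opposite strand in GENCODE vM21, and reads there cannot be told apart without strand, though Ccdc24 had 14 counts in the whole table against 168 for Slc6a9.

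A list of 42 other amino acid transporters of the plasma membrane was mostly below the filter. Of these, 39 had at least 1 count and 6 were tested, with 0 past the adjusted threshold and 0 at an unadjusted p under 0.05 in either direction by edgeR. Their median log2 fold change was -0.15, with 1 value above 0 and 5 below, against 6 above 0 among the 6 tested members, where 48.5% of all tested genes were above 0. Among those 6, Slc7a5 at 0.02 and Slc38a2 at 0.04 lay near 0, with lower mean CPM in MSNBA than in control libraries. Below the filter, the pooled log2 ratio was above 0 for Slc1a4 (0.16) and below 0 for Slc7a1 (-0.20) and Slc38a1 (-0.45). The smallest unadjusted p-values were those of Slc7a2, a further cationic amino acid carrier, at -0.52 (SE 0.27, adjusted p = 0.578), and Slc6a6, the taurine transporter, at -0.27 (SE 0.16, adjusted p = 0.605). Of 10 listed lysosomal transporters 9 were in the table and 0 were tested, and they summed to 127 to 189 CPM in MSNBA and 132 to 238 CPM in control libraries.

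**Figure D3:**
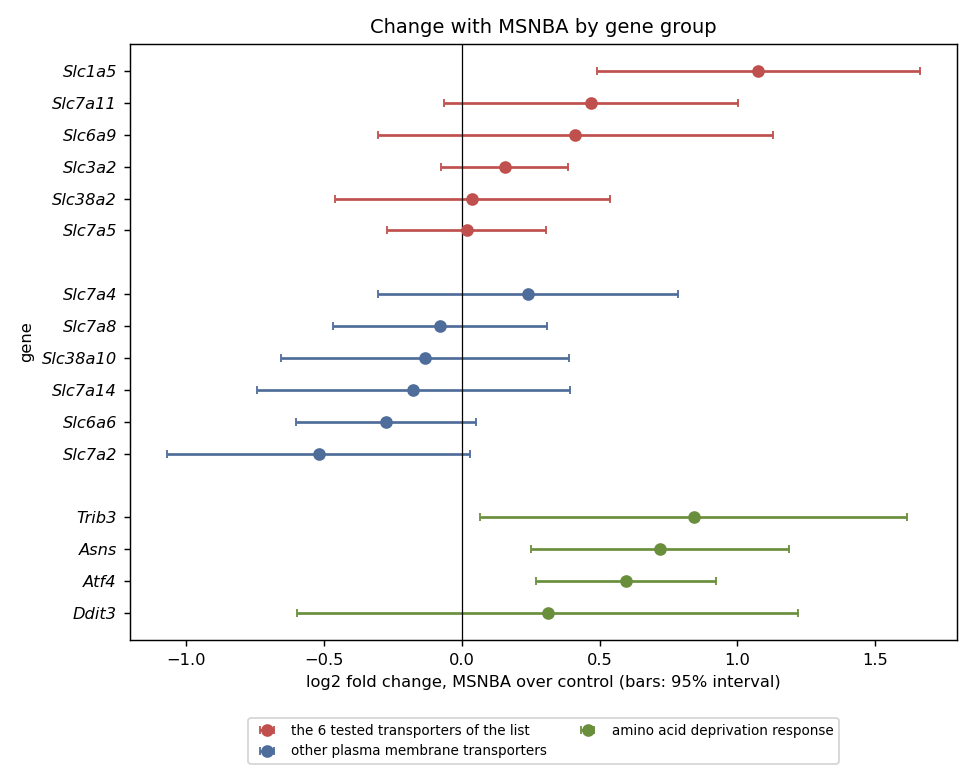
Log2 fold change, MSNBA over control (x axis), of tested genes (y axis) in 3 groups, with 95% intervals from the edgeR fit (6 libraries per group). Of the 13 tested genes of the amino acid deprivation response, only Atf4, Asns, Trib3 and Ddit3 are drawn, and the median of the 13 was 0.20. Slc1a5 is the tested transporter whose unadjusted interval lies wholly above 0, at 1.08, and the 6 other plasma membrane transporters in blue have intervals that include 0.

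Genes through which amino acids signal to the growth kinase complex mTORC1 were listed because the leucine and glutamine carried by these transporters feed it. Of 32 listed genes 7 were tested, with 0 past the adjusted threshold and a median log2 fold change of 0.09. At an unadjusted p under 0.05, 1 was lower, Tsc2, a brake on the complex, at -0.61 (SE 0.25, adjusted p = 0.401 by edgeR), and 0 were higher. Lamtor1, a lysosomal anchor of the complex, was next by p, at 0.32 (SE 0.21, adjusted p = 0.639).

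The amino acid deprivation response, whose main factor Atf4 acts on many of these transporters, had 13 of 25 listed genes tested. None passed the adjusted threshold, and by edgeR 3 had higher levels at an unadjusted p under 0.05, with 0 lower: Atf4 at 0.60 (SE 0.16, adjusted p = 0.104), Asns at 0.72 (SE 0.23, adjusted p = 0.228) and Trib3 at 0.84 (SE 0.36, adjusted p = 0.480). The stress factor gene Ddit3 had 0.31 (SE 0.41, adjusted p = 0.866), with 929 to 2371 CPM in MSNBA libraries, 2879 and 1571 CPM in controls 2 and 4 and 546 to 814 CPM in the other controls. The summed level of the list was 4895 to 8104 CPM in MSNBA libraries, 8785 and 7344 CPM in controls 2 and 4, and 3723 to 4355 CPM in the other controls. Atf4 itself had 401 CPM in control 4, but its 298 CPM in control 2 was near the 296 of control 1 and the 291 of control 6. Without controls 2 and 4, an alternative added for these genes after seeing the data, 16 genes of the list passed the filter. Of these, 2 were higher past the adjusted threshold by edgeR, beside 0.13% of the 3076 genes in that fit, and 0 were lower: Trib3 at 1.56 (SE 0.28, adjusted p = 0.00276) and Asns at 1.14 (SE 0.25, adjusted p = 0.0175). Atf4 was at 0.71 (SE 0.17, adjusted p = 0.0623) and Ddit3 at 1.02 (SE 0.27, adjusted p = 0.264). These controls were singled out for high levels of this same list, so their removal lowers the control mean by construction, and these values are a description of the remaining libraries. Slc1a5 was not high in both of these controls, with 16.5 CPM in control 2, the lowest level of all libraries, and 80.2 CPM in control 4. Slc7a1 and Slc1a4 had their highest control levels in controls 2 and 4, Slc1a4 at 66.2 and 64.1 CPM, on 4 counts in each. Slc6a9, Slc3a2 and Slc7a11 had their highest control level in control 2, and Slc7a5 in control 4. The highest control level was in control 5 for Slc38a2 and in control 6 for Slc1a5.

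Over the 12 libraries, the log2 CPM of each tested transporter was compared with that of Atf4, and those of the light chains Slc7a5 and Slc7a11 with Slc3a2, 8 relations in all (permutation tests, two-sided). The permutations ran over all libraries without regard to treatment, so r and p over the 12 include any difference between the groups. Slc1a5 and Atf4 both had higher fitted levels in MSNBA. The strongest was Slc1a5 with Atf4, at Pearson r = 0.65 (p = 0.0202, adjusted p = 0.128) and Spearman rho = 0.76 (p = 0.00636, adjusted p = 0.0509). Without the libraries farthest from the Atf4 median, controls 3 and 5, r was 0.69. Within MSNBA libraries r was 0.62 (exact p = 0.200, n = 6) and within controls 0.12 (exact p = 0.839, n = 6). With log2 depth, Atf4 had r = 0.60 (permutation p = 0.0373, adjusted p = 0.143) and rho = 0.60 (p = 0.0433), close to the values of Slc1a5 with depth. The parts of depth and of the group difference in the relation of these genes were not tested.

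Slc7a11 with Atf4 had r = 0.61 (p = 0.0321, adjusted p = 0.128) and rho = 0.47 (p = 0.127, adjusted p = 0.339), but it rested on controls 3 and 5, without which r was -0.01. It pointed in opposite directions within the groups, at -0.74 within MSNBA libraries (exact p = 0.0833, n = 6) and 0.78 within controls (exact p = 0.0917, n = 6). The other 4 transporters had r from 0.15 to 0.31 with Atf4 (adjusted p from 0.458 to 0.631). Slc7a5 with its heavy chain gene Slc3a2 had r = -0.27 (p = 0.401, adjusted p = 0.458) and rho = -0.22 (p = 0.498, adjusted p = 0.664), and Slc7a11 with Slc3a2 had r = 0.36 (p = 0.241, adjusted p = 0.458) and rho = 0.38 (p = 0.219, adjusted p = 0.424).

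**Figure D4:**
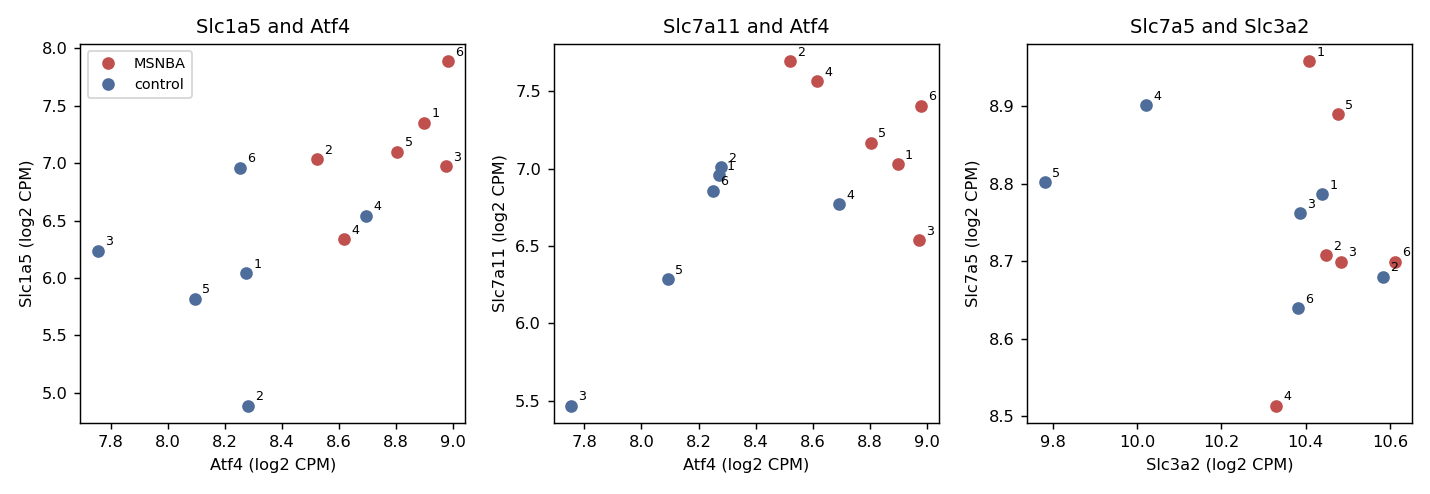
Log2 CPM of Slc1a5 and Slc7a11 against Atf4, and of Slc7a5 against Slc3a2, with MSNBA libraries in red, control libraries in blue and replicate numbers beside the points. Pearson r over the 12 libraries is 0.65, 0.61 and -0.27 from left to right, and in the Slc7a11 panel controls 3 and 5 lie alone at the lower left.

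Among the 15 pairs of tested transporters, 9 had a positive r over the 12 libraries and 3 were positive within both groups, with a median of 0.16. The highest was Slc3a2 with Slc6a9, at r = 0.67 (p = 0.0194, adjusted p = 0.291 over the 15 pairs) and rho = 0.53 (p = 0.0806, adjusted p = 0.572). Without controls 4 and 5 its r was 0.70, and r was 0.85 within MSNBA libraries (exact p = 0.0375, n = 6) and 0.63 within controls (exact p = 0.193, n = 6). No pair passed after adjustment.

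Of the other 2608 tested genes, those whose log2 CPM over the 12 libraries was most like the mean scaled profile of the 6 transporters were Rpl5, a ribosomal protein gene (r = 0.85), and Pck2, mitochondrial phosphoenolpyruvate carboxykinase (r = 0.85). Scd2, a fatty acid desaturase gene (r = 0.84), Trappc6a, a vesicle tethering subunit (r = 0.84), and Kdelr2, a receptor that returns proteins to the endoplasmic reticulum (r = 0.84), followed. Within the groups, Trappc6a kept an r of 0.94 in MSNBA and 0.94 in control libraries, while Rpl5 had 0.46 in MSNBA and 0.97 in controls. The tested genes of the amino acid deprivation response ranked from 8 to 1261 by this measure. Asns was their highest at rank 8 (r = 0.81), with Atf4 at rank 17 (r = 0.78). Mthfd2 (rank 33), Trib3 (rank 59), Nupr1 (rank 65) and Ddit3 (rank 84) also ranked high, and the rest began with Eif4ebp1 at rank 285. Atf5 was their lowest at rank 1261 (r = 0.03), with Shmt2 at rank 1089 (r = 0.09) and Phgdh at rank 1024 (r = 0.13). These values describe likeness, in part among genes chosen for it, and carry no test.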

How the data were processed

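PolyA RNA of 12 libraries was profiled by sequencing of tagmented libraries. The authors deposited raw, whole-number counts by gene symbol, 1 column per library. BWA 0.7.4.4 and mm10 appear in the submitters' processing notes. The deposited counts are labelled refseq and umi (unique molecular identifier). The counting program, the annotation release and the strand were not given in the sources used here. The columns stand in 3 runs of 4. The first run holds only control libraries and the last only MSNBA libraries, while the middle run holds some of each. The controls of the middle run are those that stood apart in the summed level of the amino acid deprivation response genes. The labels alone set the groups, and every contrast of MSNBA with control rests on them. Whether the labels of the middle run are right was not tested. The transporters, gene lists and alternatives were chosen with earlier results of these data known.

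Counts were analysed in R 4.3.3 with edgeR 4.0.16 (filterByExpr, TMM, robust quasi-likelihood F test with intercept and treatment) and adjusted by Benjamini-Hochberg over the 2614 genes that passed, which held 79.2% of counts. The standard error was the log2 fold change over the square root of F. limma 3.58.1 (voom) and DESeq2 1.42.0 were alternatives. Genes below the filter are given as pooled counts with exact Poisson intervals at 95%, and their ratio with the exact conditional interval. Log2 CPM used a prior count of 2, and correlations 100000 permutations over all libraries without regard to treatment, or all orders within a group. Genes named were all 10 members, the genes past the threshold or otherwise the pair with the smallest p in each other list, Atf4, Ddit3, Asns and Trib3, and the 5 genes most like the members.

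Data were simulated with the depths of MSNBA against control, over 3 runs of 2614 genes with 200 changed. Among changed genes that passed the filter, edgeR recovered 25.0% at a log2 change of 0.5, 90.5% at 1 and 100% at 2, with 5.39% of calls false. These shares cover all such genes together and hold for that number of changed genes. They do not give the power for single transporters with few counts. In the deposited data 2 genes were called. Slc1a5, with 35 control counts and a log2 fold change of 1.08, was not among them. No pair of replicates agreed within counting noise (chi-square of 1.15 per gene or more).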

Additional observations from a re-analysis of the deposited data

Results flagged for a closer look

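Slc6a9 measured 216 CPM in MSNBA 6, and the next MSNBA library had 92.8 CPM, so this library stood far from the other 5 of its group. It was the lone library found in 16 groups of 6 (8 transporter genes in each treatment), where chance gives about 1 in 20, or 0.8. The value rests on 29 counts in that library. The summed level of the amino acid deprivation response genes was also highest among MSNBA libraries in MSNBA 6, at 8104 CPM, and Slc1a5 and Slc3a2 had their highest levels there, at 224 and 1551 CPM. Whether these values are linked was not tested.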

How the results depend on the processing

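Of the 6 tested transporters, Slc3a2 kept its direction in 11 of 11 settings and Slc1a5, Slc7a11, Slc6a9 and Slc38a2 in 10 of 10 (other tests, factors, filters, block, depth and left-out sets), and none of the 6 passed in them but Slc1a5 without the low-count filter (1.21, adjusted p = 0.0348). The stricter filter of 20 counts in 6 libraries left only Slc7a5 and Slc3a2. Slc7a5 kept its direction in 10 of 11 and turned to -0.064 with log2 depth in the model. With 1 library left out, Slc7a5 ran from -0.041 to 0.047, Slc38a2 from -0.15 to 0.15 and Slc3a2 from 0.087 to 0.21. The numbers of genes called were 0 with DESeq2 (394 at an unadjusted p under 0.05), 6 with its default filtering level (chosen after seeing the data), 0 with limma-voom, 15 without the low-count filter, 1 with the stricter filter, 0 with depth, 7 without controls 2 and 4, and 0 to 5 with 1 library left out. Replicate numbers passed a residual correlation of 0.1 in 3 of 6 pairs (0.476, 0.200 and 0.121 for numbers 1, 4 and 5), and 2 of 6 controls correlated best with the MSNBA library of their own number. The labels name no shared batch and not every pair passed, so the libraries were not treated as paired, and whether some numbers share a batch was not tested. A replicate block called 3 genes, against 2 without it, and gave Slc1a5 an adjusted p of 0.0627. Turned correlations were those of Slc3a2 with Atf4 in controls (-0.17), Slc7a11 with Atf4 in MSNBA (-0.74) and without the farthest libraries (-0.010), Slc38a2 with Atf4 in MSNBA (-0.030), Slc7a5 with Slc3a2 in MSNBA (0.19) and without the farthest libraries (0.12), and Slc7a11 with Slc3a2 in MSNBA (-0.15). The causes were not tested. Depth limits Slc38a1 and Slc7a3, with 11 and 2 counts in all.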
